A study of Mus musculus with 18 samples.

Results

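The comparison described here sets cerebral cortex labelled Mcph1KO against wild-type (WT) cortex at the stage labelled A18w. It rests on 4 of the 18 RNA-seq libraries of the study, 2 per genotype, chosen by their labels. All 4 came from male C57BL/6J mice, from tissue that was homogenised and then divided for DNA and RNA, and no treatment is named. The other cortex libraries, with 2 per genotype at E17.5, P4 and the stage labelled A6w, served to estimate the spread between libraries and to ask whether a difference at A18w differed from those at other stages. The labels do not describe the allele, and nothing in them tells if the libraries came from different animals, so p-values measure only the spread between these libraries, which may be technical.

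Mcph1 encodes microcephalin, a protein with BRCT domains that restrains chromosome condensation through condensin II and takes part in the DNA damage response. Loss of the human gene causes primary microcephaly with premature chromosome condensation. Most cells of the mature cortex no longer divide: neurons of the cortical layers, interneurons, astrocytes, the oligodendrocytes that make myelin, microglia and vessels share the tissue. Bulk RNA values mix all of them, and fewer cells of a type and less RNA per cell cannot be told apart.

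The A18w libraries held 24086143 to 25127481 estimated counts, with 22318 to 23530 genes detected. Levels are given as CPM, the counts scaled to a common library size. The 10 markers of cortical projection neurons were all measured, with a median log2 difference of -0.11. Slc17a7, the vesicular glutamate transporter of these neurons, stood at 1468.6 and 1396.5 CPM in WT replicates 1 and 2 and at 1535.2 and 1456.1 CPM in Mcph1KO replicates 1 and 2. Libraries with the same replicate number were more alike than others across genotypes: their correlations were 0.98 and 0.983, against 0.973 to 0.974 for the rest. Markers of the striatum, which lies beneath the cortex, followed the replicate number and not the genotype, with summed levels of 5177.9 and 3899.5 CPM in replicate 1 of WT and Mcph1KO and 1252.2 and 1855.4 CPM in replicate 2. The fit therefore compared each Mcph1KO library with the WT library of its number. A pair is such a couple of libraries, and the first of a genotype's values is always replicate 1.

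Mcph1 showed no loss of reads under the Mcph1KO label. Its gene model (chromosome 8, 18595131 to 18803189 in GRCm38, ENSMUSG00000039842.15) stood at 8.36 and 9.72 CPM in WT and at 13.9 and 11.7 CPM in Mcph1KO, and the groups did not overlap. The log2 difference of 0.50 ± 0.20 (standard error, SE, used throughout for fitted differences) did not pass edgeR's quasi-likelihood test (adjusted p = 1), and without replicate 1 of either group it was 0.26. A gene-level count shows reads on any part of the gene, so it does not tell which exons were read or whether protein was made. Of 58 tested genes within 5 Mb of Mcph1, 3 were higher (5.17%, against 1.27% of all genes) and 0 lower (1.33% of all genes) at an unadjusted p under 0.05, with a median log2 difference of -0.01.

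Across the transcriptome few genes differed detectably between the genotypes. With 2 libraries per genotype and 4 residual degrees of freedom, few calls do not show that the differences were small. Of 19199 genes, 4 passed an adjusted p of 0.05 (0.0208%), 3 higher (0.0156%) and 1 lower (0.00521%) in the libraries labelled Mcph1KO. At an unadjusted p under 0.05 there were 498 genes (2.59%), 243 higher (1.27%) and 255 lower (1.33%), and the median of all genes was -0.01. The numbered pairs had differences of the same sign in 43.7% of genes, 20.7% higher in both and 23% lower in both. Their correlation over the 19199 genes was -0.0147, given as a description of pairs that share no library. Without the replicate number in the fit, the number called was 0 by edgeR, with 326 at the unadjusted level (1.7%), and DESeq2 with it called 1.

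One of the 4 called genes, Pcdha2, rested on all 4 libraries. The other 3 are pseudogenes named here after their values were seen, and each rested on 1 library. Gm5641 (chromosome 3, 54481438 to 54482925) had 340 counts in Mcph1KO replicate 1 and 0 in the other A18w libraries (adjusted p = 0.0144, edgeR). Rpl34-ps1 (chromosome 6, 71124610 to 71124963), a pseudogene of a ribosomal protein gene, had 920 counts in WT replicate 1, 1 in WT replicate 2 and 0 in both Mcph1KO libraries (adjusted p = 0.0286, edgeR). Gm10925 (chromosome 1, 24613974 to 24614651) had 247 counts in Mcph1KO replicate 2 and 0 elsewhere at A18w (adjusted p = 0.0419, edgeR). Libraries of other stages also held reads of these pseudogenes, up to 277.3 CPM for Gm5641, 74.0 CPM for Rpl34-ps1 and 321.5 CPM for Gm10925.

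Pcdha2 was the protein-coding gene that rose. It belongs to the clustered protocadherins, cadherin-like adhesion proteins of which single neurons use different sets and which take part in neuronal self-recognition. The gene (GRCm38 chromosome 18, 36939205 to 37187657) had 86 and 97 counts in WT and 286 and 319 in Mcph1KO. These correspond to 4.04 and 4.26 CPM against 12.3 and 14.2 CPM, so both Mcph1KO libraries lay far above both WT libraries. The log2 difference was 1.67 ± 0.17 (adjusted p = 0.026, edgeR), with 1.59 and 1.71 in the pairs. Without the replicate number as a block its adjusted p was 0.0544. Leaving out any 1 of the 4 libraries kept the difference between 1.61 and 1.73 and ended the call, with adjusted p from 0.353 to 0.505. The A18w difference did not differ detectably from that at A6w (0.18 on the log2 scale, adjusted p = 1, edgeR). Pcdha2 was higher in both Mcph1KO libraries at the other stages too. It stood at 12.5 and 14.8 CPM in WT against 28.1 and 35.4 CPM at E17.5, and at 24.4 and 33.2 CPM against 51.0 and 58.4 CPM at P4. At A6w the levels were 5.36 and 6.69 CPM in WT and 17.3 and 16.5 CPM in Mcph1KO.

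The neighbours of Pcdha2 moved in both directions. The alpha protocadherin genes each have a variable first exon with its own promoter and share their last exons, so the authors' counting had to divide shared reads between them and single members are uncertain. Of 14 alpha gene IDs tested, 6 were higher (background 1.27%) and 2 lower (1.33%) at an unadjusted p under 0.05, 1 was called, and the median was 0.17. In 7 the Mcph1KO libraries lay above the WT libraries without overlap (background 10.4%), and in 3 below (12.4%). Pcdha1 stood at 3.19 and 3.43 CPM in WT and 9.38 and 7.54 CPM in Mcph1KO (1.34 ± 0.24, adjusted p = 0.393, edgeR). Pcdha5 stood at 10.1 and 14.3 CPM in WT and 18.9 and 21.5 CPM in Mcph1KO. Both Mcph1KO libraries lay above both WT libraries in each of these genes. Pcdha6, in contrast, stood at 10.8 and 10.7 CPM in WT and 2.63 and 5.19 CPM in Mcph1KO (-1.51 ± 0.34, edgeR adjusted p = 1). At each of the other stages Pcdha1 was also higher and Pcdha6 lower in Mcph1KO without overlap. Pcdha5 overlapped at those stages, with 16.2 and 19.4 CPM in WT and 13.4 and 16.6 CPM in Mcph1KO at A6w.

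Pcdha9 stood at 12.2 and 14.2 CPM in WT and 7.15 and 8.03 CPM in Mcph1KO, also without overlap. Pcdha3 (0.57 ± 0.18), Pcdha4 (0.74 ± 0.29) and Pcdha8 (1.64 ± 0.71) were on the higher side, and in Pcdha8 the level of 5.42 CPM in Mcph1KO replicate 1 stood apart from 1.07 CPM in replicate 2. The remaining alpha members, Pcdha7, Pcdha12, Pcdhac1, Pcdhac2 and both IDs named Pcdha11, ran from -0.45 to 0.38. The summed level of the cluster was close between genotypes, with 215.3 and 237.9 CPM in WT and 228.6 and 257.0 CPM in Mcph1KO. The next cluster, the beta protocadherins, are single-exon genes: 19 of 22 lay above 0 (background 47.4%), with a median of 0.36 and 4 higher at an unadjusted p under 0.05 (background 1.27%). Pcdhb3 stood at 6.2 and 14.1 CPM in WT and 17.8 and 18.5 CPM in Mcph1KO, and Pcdhb2, Pcdhb11 and Pcdhb10 were the others. The 22 gamma genes had a median of -0.03, with 0 higher (background 1.27%) and 1 lower (1.33%) at an unadjusted p under 0.05.

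**Figure D1:**
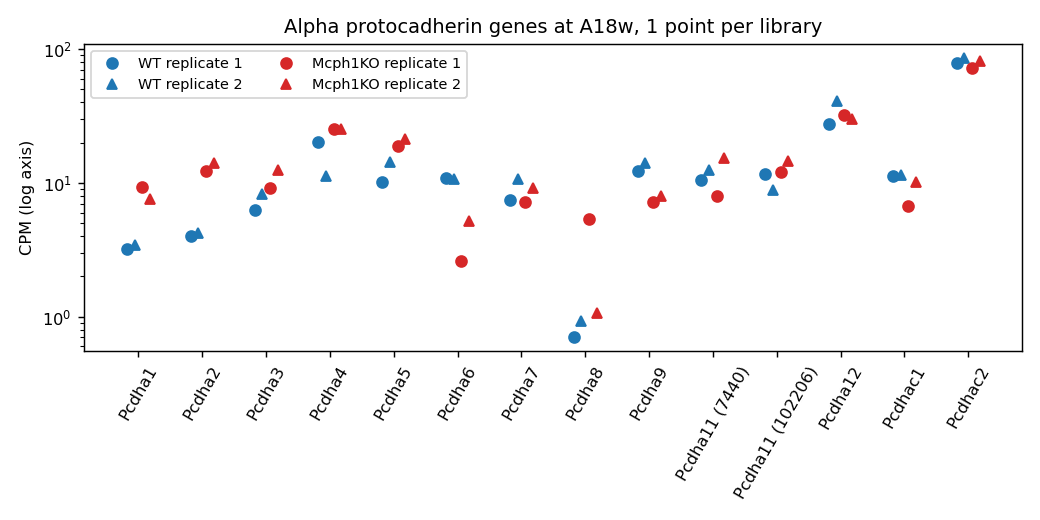
Levels of the alpha protocadherin genes at A18w in CPM on a log axis, 1 point per library, with the 2 IDs of Pcdha11 told apart by the ends of their Ensembl numbers. Pcdha2 and Pcdha1 lie higher and Pcdha6 and Pcdha9 lower in both libraries labelled Mcph1KO, and Pcdhac2 overlaps.

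A further group showed large differences without a call: gene models built on repeats. The models Gm10800 and Gm10801 stood near the top of the unadjusted ranking, and the group was therefore chosen after its values were seen, as a description. In GENCODE M21, 13 gene models, these 2 among them, share at least 10% of their 24-base words with the 2. Of the 13, 12 are in the deposited table and 8 were tested, again with these 2 included. In 9 of the 12 the sequence matches itself best when shifted by 234 bases, a period that is also that of mouse major satellite DNA, the tandem repeat of pericentromeric heterochromatin. The best shift was 225 bases in Gm10800, 231 in Gm10801 and 237 in Gm11168. Identity at the best shift ran from 52.7% (Gm10801) to 67.6% (Gm10721) among the 12. The likeness of the models is shown here, since reads from one copy cannot be assigned to a single model. Stretches of 120 bases of 3 transcripts (GENCODE M21, GRCm38, annotated as coding) carry in capitals a 24-base word present in all 12.
Gm10800: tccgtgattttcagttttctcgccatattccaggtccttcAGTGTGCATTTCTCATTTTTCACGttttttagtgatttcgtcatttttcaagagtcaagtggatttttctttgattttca
Gm10719: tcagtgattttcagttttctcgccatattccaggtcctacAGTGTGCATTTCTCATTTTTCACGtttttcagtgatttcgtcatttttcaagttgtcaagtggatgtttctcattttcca
Gm11168: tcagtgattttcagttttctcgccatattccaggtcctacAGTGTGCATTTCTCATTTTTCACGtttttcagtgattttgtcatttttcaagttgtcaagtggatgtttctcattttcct

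Gm10800 (chromosome 2, 98666547 to 98667301) had 1 and 28 counts in WT and 340 and 328 in Mcph1KO. Gm10801 (chromosome 2, 98662237 to 98664083) had 3 and 4 counts in WT and 123 and 77 in Mcph1KO. Gm10719 (chromosome 9, 3017408 to 3021593) had 1 and 19 counts in WT and 326 and 213 in Mcph1KO, and Gm11168 on the same chromosome had 6 and 3 against 129 and 59. All 12 models were higher in both Mcph1KO libraries than in both WT libraries (10.4% of all tested genes), in a group chosen for its values. Models that were not tested had few counts, as in Gm10720 with 0 and 0 in WT and 6 and 1 in Mcph1KO. Summed over the 12 models, the counts were 16 and 78 in WT against 1452 and 1013 in Mcph1KO, or 0.752 and 3.43 CPM against 62.5 and 45.0 CPM. In the 12 cortex libraries of the other stages, 6 of them labelled Mcph1KO, the sum ran from 0 to 6.32 CPM.

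None of the 8 tested models was called in the fit of the 16 cortex libraries: their unadjusted p ran from 6.93e-05 to 0.00428 and the smallest adjusted p was 0.222 (edgeR). A fit of the 4 A18w libraries alone with the block called all 8 (adjusted p from 3.14e-05 to 0.000517, edgeR), among 24 calls in 16767 genes. That fit left 1 residual degree of freedom. The fit without a filter on low counts also called all 8, among 130 calls in 33930 genes. Its spread came from the trend over all genes and not from single genes. DESeq2 called 0 of the 8 models (smallest adjusted p = 0.199). Gm10800 differed by 4.85 ± 0.77 and Gm10801 by 4.70 ± 0.66 on the log2 scale, and leaving out 1 library gave 3.56 to 8.15 for Gm10800. Whether these reads came from RNA was not tested.

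**Figure D2:**
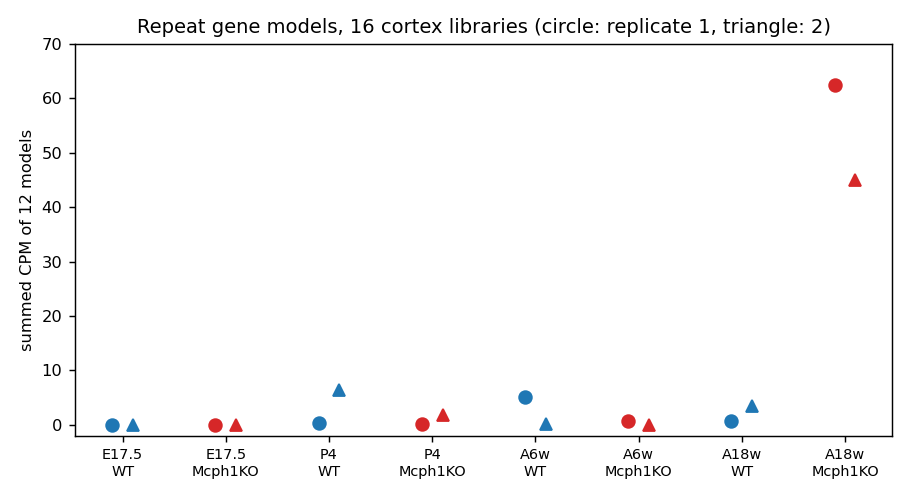
Summed CPM of the 12 repeat gene models in each of the 16 cortex libraries, by stage and genotype. The 2 A18w libraries labelled Mcph1KO stand at 62.5 and 45.0 CPM, and no other library exceeds 6.32 CPM.

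Myelin genes lay lower in the libraries labelled Mcph1KO, and none was called by edgeR in the fit of the 16 cortex libraries or by DESeq2. The fit of the 4 A18w libraries alone with the block called 1, Anln (adjusted p = 0.0229, edgeR), among 24 calls in 16767 genes. The fit without a filter on low counts called 10, among 130 calls in 33930 genes. All 29 genes of the list lay below 0, against 52.1% of all genes, and 12 had an unadjusted p under 0.05 (41.4%, background 1.33%). The median was -0.53, with -0.85 in the first pair and -0.31 in the second, and in 25 of the 29 the groups did not overlap (background 12.4%). Mbp, which encodes a major protein of compact myelin, stood at 5678.2 and 2724.3 CPM in WT and 2526.0 and 2253.9 CPM in Mcph1KO. WT replicate 1 stood far above the other 3 libraries, and the log2 difference was -0.72 ± 0.26 (edgeR adjusted p = 1). Without WT replicate 1 it was -0.27.

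Anln, which encodes the actin-binding protein anillin, stood at 59.5 and 52.0 CPM in WT and 23.8 and 33.2 CPM in Mcph1KO (-0.98 ± 0.27, edgeR adjusted p = 1). Trf encodes transferrin, the iron carrier, and stood at 424.2 and 351.5 CPM in WT and 230.0 and 266.7 CPM in Mcph1KO. Cldn11, the claudin of myelin tight junctions, stood at 248.9 and 172.8 CPM in WT and 130.4 and 120.7 CPM in Mcph1KO. In these genes the Mcph1KO libraries were the lower ones in both pairs. Summed over the list, WT replicate 1 held 13532.9 CPM, WT replicate 2 held 7883.7, and the Mcph1KO libraries held 6638.1 and 6437.4. The list of oligodendrocyte precursors and lineage factors had a median of -0.01, with -0.18 in the first pair and 0.04 in the second. Of its members, 7 lay above 0 (background 47.4%) and 10 below (52.1%). The lineage factors Sox8 (-0.43 ± 0.16), Nkx2-2 (-0.57 ± 0.26) and Sox10 (-0.51 ± 0.24) were among those below. Only Sox8 had an unadjusted p under 0.05. Cspg4, a precursor gene, was among those above (0.23 ± 0.17). These named genes kept their signs on leaving out any 1 library.

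The myelin difference was not shown to be particular to A18w. The median of the same list was -0.28 at A6w, and 0 of its genes had an unadjusted p under 0.05 for a difference between the A18w and A6w differences. Against the mean of the other 3 stages the median was -0.39, and 4 of the 29 were lower at an unadjusted p under 0.05 (13.8%, background 1.22%).

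**Figure D3:**
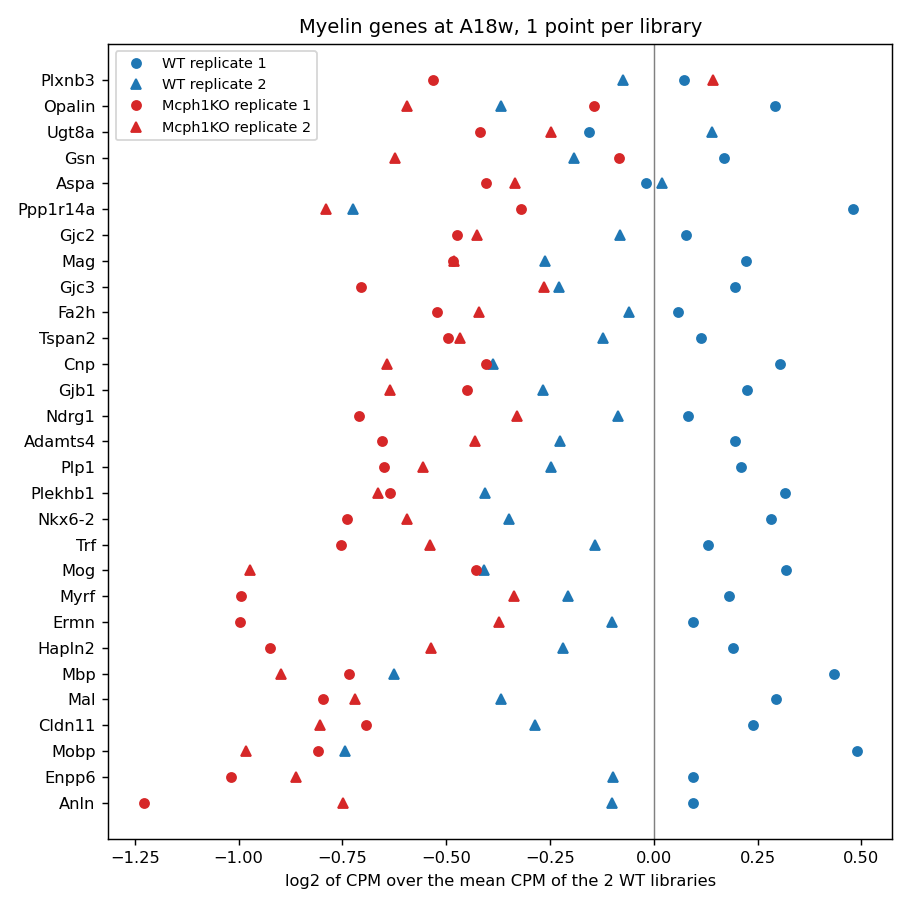
Log2 of CPM over the mean of the 2 WT libraries for each myelin gene at A18w, 1 point per library. The libraries labelled Mcph1KO lie lower in most genes, and WT replicate 1 lies above WT replicate 2.

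Glucocorticoid-induced genes and clock genes also lay on the lower side. Of 21 glucocorticoid response genes, 20 lay below 0 (background 52.1%) and 3 were lower at an unadjusted p under 0.05 (background 1.33%). The median was -0.30, with -0.51 and -0.12 in the pairs. Sgk1, a kinase induced by glucocorticoids and serum, stood at 262.8 and 188.4 CPM in WT and 121.1 and 140.5 CPM in Mcph1KO (-0.77 ± 0.16, edgeR adjusted p = 0.801). Tsc22d3, which encodes the glucocorticoid-induced leucine zipper protein, stood at 148.0 and 111.4 CPM in WT and 88.1 and 99.4 CPM in Mcph1KO. Plin4, a lipid droplet coat protein, stood at 10 and 2.73 CPM in WT and 0.301 and 1.69 CPM in Mcph1KO. At A6w the list median was 0.26, on the other side of 0. The difference between the stages had a median of -0.87, with 8 genes lower at an unadjusted p under 0.05 (38.1%, background 2.16%), and for Sgk1 it was -1.96 (edgeR adjusted p = 0.058).

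Of 20 circadian clock genes, 18 lay below 0 (background 52.1%), and 5 were lower at an unadjusted p under 0.05 (background 1.33%). The median was -0.33, with -0.60 and -0.07 in the pairs. Per2, a repressor of the clock, stood at 56.6 and 36.2 CPM in WT and 22.7 and 31.8 CPM in Mcph1KO. The others were Bhlhe41 (-0.55 ± 0.22), Bhlhe40 (-0.36 ± 0.15), Cry1 (-0.47 ± 0.19) and Rora. The first pair showed the larger difference in both lists: without replicate 1 of either group Per2 was at -0.19, Bhlhe41 at -0.24 and Cry1 at -0.23, while Bhlhe40 was at -0.36.

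Immediate-early genes, which neurons switch on within minutes of activity, differed little in level by genotype at A18w. Their median was -0.09, 17 of 25 lay below 0 (background 52.1%), and 11 were lower in both pairs (background 23%). Only Jun had an unadjusted p under 0.05 (0.28 ± 0.12, background 1.27% higher). At A6w the same list had a median of 0.95, and the A18w difference minus the A6w difference had a median of -1.18. In 13 of the 25 that test gave a lower value at an unadjusted p under 0.05 (52.0%, background 2.16%), and the smallest adjusted p was 0.392 (edgeR). Arc, an activity-induced regulator of synapses, stood at 156.4 and 195.6 CPM in A6w WT and 335.8 and 500.4 CPM in A6w Mcph1KO. At A18w it stood at 520.8 and 328.1 CPM in WT and 317.2 and 317.1 CPM in Mcph1KO. In Arc the 2 WT stages thus differed at least as much as the genotypes, which did not hold for every gene of the list. Junb stood at 48.3 and 71.9 CPM in A6w WT and 143.8 and 108.5 CPM in A18w WT. Its A6w Mcph1KO libraries stood above these, at 178.8 and 147.3 CPM. For Arc the change of the difference was -1.61 (edgeR adjusted p = 0.392). Over all genes edgeR called 2 in this test (0.0104%), both of them pseudogenes, with 850 at an unadjusted p under 0.05 (4.43%; 2.27% higher and 2.16% lower), and DESeq2 called 15. Against the mean of the other 3 stages the calls were 0 by edgeR and 3 by DESeq2, with 446 genes at the unadjusted level (2.32%; 1.1% higher and 1.22% lower).

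**Figure D4:**
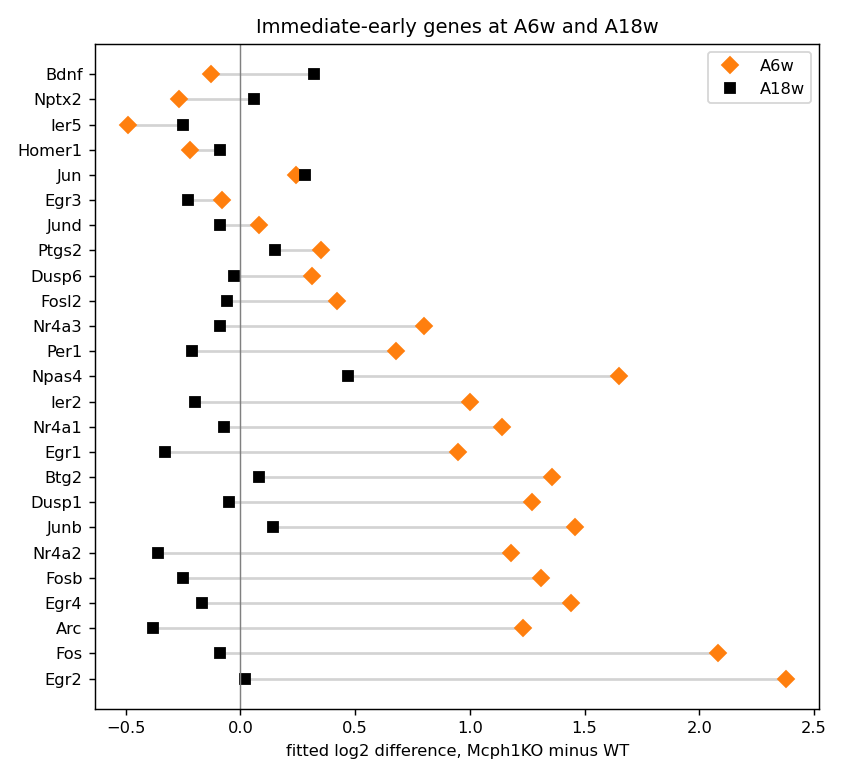
Fitted log2 differences, Mcph1KO minus WT, of the immediate-early genes at A6w and A18w. The A6w values lie to the right of those at A18w, where the median is -0.09.

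Other tissue and cell types were checked by lists. Choroid plexus and ependyma genes had a median of -1.23, and 17 of 18 lay below 0 (background 52.1%), and WT replicate 2 stood far above the other libraries. Ttr, the transthyretin of choroid plexus, stood at 0.799 and 636.4 CPM in WT and 0 and 12.6 CPM in Mcph1KO. The summed list held 236.9 and 1250.8 CPM in WT and 215.6 and 258.7 CPM in Mcph1KO, and without WT replicate 2 the median was -0.65. Prlr, the prolactin receptor of choroid plexus, stood at 0.517 and 8.84 CPM in WT and 0.129 and 1.24 CPM in Mcph1KO, so the groups overlapped although each pair was lower. Of the 18 genes, 6 were lower at an unadjusted p under 0.05 (33.3%, background 1.33%), and 12 were lower in both pairs (background 23%). Leaving out 1 library gave -1.3 to -1.01 for Ccdc153 and -1.47 to -1.2 for Cfap126. Microglia genes had 20 of 22 above 0 (background 47.4%) with a median of 0.19, 0 at an unadjusted p under 0.05, and 0.39 and -0.03 in the pairs. Red blood cell genes had a median of 0.41 (-0.08 and 0.94), meningeal fibroblasts 0.13 (0.55 and -0.31) and striatum 0.11 (-0.39 and 0.56).

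Among the genes of smallest unadjusted p beyond these groups, those on the higher side included the retinoic acid-degrading enzyme Cyp26b1 (4.7 and 5.93 CPM in WT, 10.5 and 8.7 in Mcph1KO). Col4a2, a basement membrane collagen, stood at 18.5 and 23.7 CPM in WT and 32.1 and 32.6 CPM in Mcph1KO. Ptpro, a receptor tyrosine phosphatase, stood at 16.2 and 17.7 CPM in WT and 42.2 and 23.8 CPM in Mcph1KO. Cpne7 (0.82 ± 0.20), Mdga1 (0.63 ± 0.17) and Plch2 (0.41 ± 0.12) followed, with Tmem254a. On the lower side Apod, an apolipoprotein, stood at 216 and 182 CPM in WT and 112 and 121 CPM in Mcph1KO. Gatm, the first enzyme of creatine synthesis, stood at 191 and 130 CPM in WT and 85.5 and 95.6 CPM in Mcph1KO. Gab1, Serinc2, Plin3, Shtn1 and the amino acid transporter Slc38a2 ran from -0.44 to -0.75. None of these passed the adjusted threshold in the fit of the 16 cortex libraries (edgeR), and of the 498 genes at an unadjusted p under 0.05, 33.5% have clone, model or pseudogene names, against 20.6% of all tested.

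Lists of genes close to the known work of microcephalin had medians from -0.11 to 0.08. Medians were 0.04 for mitosis, -0.03 for DNA replication, -0.02 for the 8 condensin subunits, -0.02 for cohesin and CTCF, -0.05 for other primary microcephaly genes, 0.08 for the DNA damage response and -0.11 for p53 targets. The mitosis median combined 0.24 in the first pair and -0.24 in the second. Of 25 DNA replication genes, 11 were lower in both pairs (background 23%) and 4 higher in both (20.7%). In 9 of them the Mcph1KO libraries lay below the WT libraries without overlap (background 12.4%), and in 1 above (10.4%). Of 22 p53 targets, 9 were lower in both pairs and 3 higher, and 6 lay below and 2 above without overlap. Ncaph, a condensin I subunit, stood at 0.752 and 0.44 CPM in WT and 1.21 and 1.6 CPM in Mcph1KO (1.24 ± 0.36, edgeR adjusted p = 1), and leaving out 1 library gave 0.68 to 1.85. Fanci, of the Fanconi anaemia pathway, was the damage response gene with an unadjusted p under 0.05 (1.13 ± 0.39). Mcm3 (-0.54 ± 0.19) and Prim1 (-0.63 ± 0.22) were lower and Mcm5 (0.40 ± 0.17) higher at that level among 25 replication genes (background 1.33% and 1.27%).

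**Figure D5:**
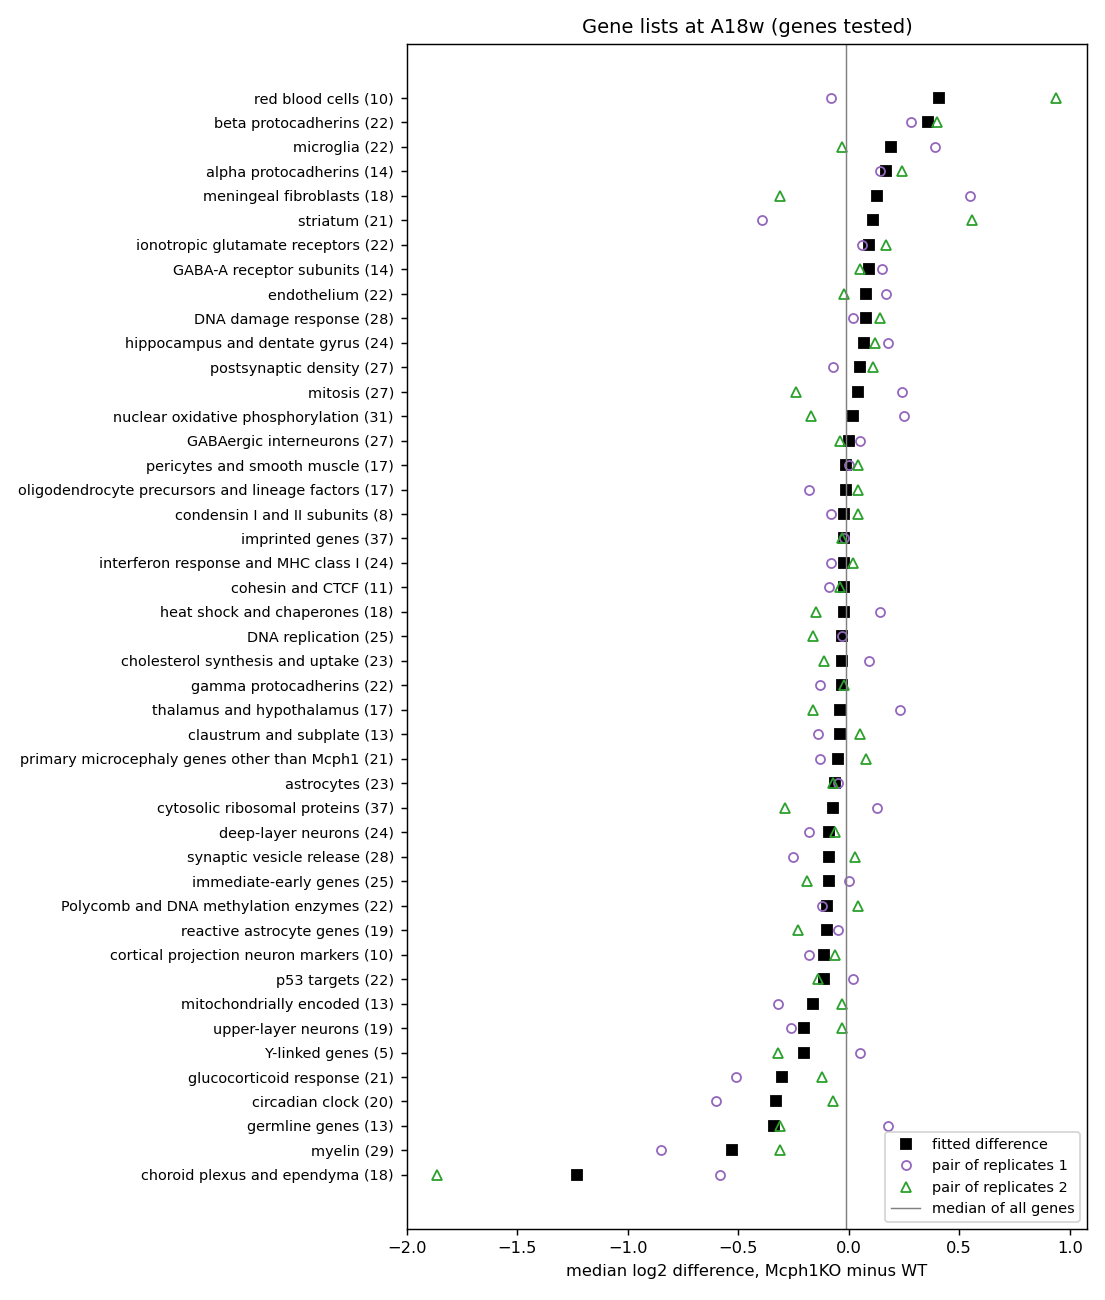
Median fitted log2 difference, Mcph1KO minus WT, of each gene list at A18w, with the number of genes tested and the median of all genes as a grey line. Choroid plexus and ependyma (-1.23), myelin (-0.53), germline genes (-0.34), circadian clock (-0.33) and glucocorticoid response (-0.30) lie lowest, and red blood cells (0.41) and beta protocadherins (0.36) highest. The germline median combined 0.18 in the first pair and -0.31 in the second.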

How the data were processed

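RNA-seq libraries were made from mouse cerebral cortex (NEBNext Ultra RNA kit, HiSeq 2500, per the labels' protocols). The authors trimmed reads with Trimmomatic 0.39, checked them with FastQC and deposited estimated counts from Salmon 1.4.0 on GRCm38.p6, per the submitters' processing notes. They are whole numbers, so no rounding was needed. Of the 54281 gene IDs, 54107 matched GENCODE M21. The labels gave each library's group and replicate number.

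All 16 cortex libraries were fitted together with edgeR 4.0.16 (R 4.3.3), using filterByExpr (at least 10 counts and 15 in total; 19199 genes), TMM factors, 1 mean per stage and genotype, and the replicate number within each stage as a block, which left 4 residual degrees of freedom. Quasi-likelihood F tests were adjusted by Benjamini-Hochberg over all genes and called at 0.05. SE is the size of the log2 difference over the square root of F. Same-numbered deviations correlated at 0.478 (E17.5), 0.209 (P4), 0.0829 (A6w) and 0.295 (A18w). Since A6w is low, the numbers pair the samples as a hint from the data, not from the labels. Replicates were not copies (chi-square per degree of freedom 48.8 and 60).

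Pair differences use log2 CPM with a prior count of 2. DESeq2 1.42.0, other scalings, filters, library sets and leaving out each A18w library were alternatives. The scripts were tested on simulated data. Mcph1 was named first, then called genes of the same sign in both pairs with a mean of at least 1 CPM, filled to 12 a direction by smallest unadjusted p, and up to 4 members per list. Clone, model and pseudogene names were counted only, except where said. The members, the 45 gene lists and the naming rule were chosen with earlier results of these data known, and lists were described without a test. Single microglial genes are not reported here.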

Additional observations from a re-analysis of the deposited data

Results flagged for a closer look

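The genotype difference at A18w differed from that at A6w in 2 genes, both pseudogenes. For Rpl34-ps1 the adjusted p was 0.0053 (edgeR), and the value rested on WT replicate 1 at A18w (43.2 CPM) and Mcph1KO replicate 1 at A6w (45.3 CPM), with at most 1.15 CPM in the other libraries of these stages. For Gm5641 the adjusted p was 0.00231 (edgeR), and the value rested on Mcph1KO replicate 1 at A18w (14.6 CPM) and WT replicate 2 at A6w (8.11 CPM), with 0 in the other libraries of these stages. Single libraries carry each value, and a fitted fold against libraries at 0 depends on the prior count, so no fold is given.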

How the results depend on the processing

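The counts of called genes moved with most settings, and the cause was not tested. With 4 genes called at A18w, 2 in the test against A6w and 0 in that against the other 3 stages, dropping the replicate block gave 0, 0 and 0. The 4 A18w libraries alone gave 24 with the block (1 of them shared with the 4) and 0 without it, and the 8 A6w and A18w libraries gave 0 at A18w and 1 against A6w. DESeq2 gave 1, 15 and 3. Without a filter on low counts the numbers were 130, 221 and 91, and with a mean of at least 1 CPM 2 genes remained at A18w. Median-of-ratios factors left all 3 counts as they were. Leaving out 1 library gave 0 to 2, 0 to 4 and 0 to 1 genes, and taking out either library of a pair leaves the difference of the other pair alone. Pcdha2 kept its direction in every setting and was called by DESeq2 (adjusted p = 1.21e-07), but not with the 8 libraries (0.285) or the 4 without a block (0.39). Over 80 genes followed, 859 of 937 values kept direction and call, and 10 turned sign, all on leaving out a library. These were Per1 (-0.51 to 0.08), Ncapg (-0.34 to 0.01), Adora2a (-0.18 to 0.94), Penk (-0.08 to 0.56) and Hba-a2 (-0.14 to 0.99). Medians of 25 of the 45 lists changed sign in at least 1 setting, among them mitosis (-0.26 to 0.24), microglia (-0.03 to 0.39) and striatum (-0.39 to 0.56), while myelin ran from -0.85 to -0.31. At these depths, genes with a few counts per library are known only coarsely.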

Other observations

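The neuronal lists had small medians on either side of 0, against -0.01 for all genes. Medians were -0.20 for upper-layer neurons, -0.09 for deep-layer neurons, 0.00 for GABAergic interneurons, -0.09 for synaptic vesicle release, 0.05 for the postsynaptic density, 0.09 for ionotropic glutamate receptors and 0.09 for GABA-A receptor subunits. Above 0 lay 12 of 14 GABA-A subunits and 16 of 22 ionotropic glutamate receptors (background 47.4%). Below 0 lay 20 of 28 vesicle release genes and 12 of 19 upper-layer genes (background 52.1%). Tshz2, a deep-layer marker, stood at 43.1 and 67.5 CPM in WT and 19 and 36.7 CPM in the libraries labelled Mcph1KO (-1.03 ± 0.38, edgeR adjusted p = 1). Scnn1a, a marker of layer 4, was lower at a like size (-1.03 ± 0.42). Among interneuron genes Pvalb was lower (65.0 and 56.9 CPM against 39.5 and 46.3 CPM) and Calb2 higher (5.45 and 13.1 CPM against 21.4 and 15.3 CPM), both at an unadjusted p under 0.05 only.

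Astrocyte genes had a median of -0.06, reactive astrocyte genes -0.10, endothelium 0.08 and pericytes and smooth muscle -0.01. Kdr, a receptor for vascular endothelial growth factor, stood at 11.3 and 14.9 CPM in WT and 19.9 and 19.6 CPM in Mcph1KO (0.60 ± 0.22). Medians were -0.04 for thalamus and hypothalamus, 0.07 for hippocampus and -0.04 for claustrum and subplate. They were -0.02 for the interferon response, -0.02 for heat shock, -0.03 for cholesterol synthesis, 0.02 for nuclear oxidative phosphorylation, -0.16 for mitochondrially encoded genes and -0.07 for ribosomal proteins. Imprinted genes had a median of -0.02, and Polycomb and DNA methylation enzymes -0.10. Of 24 germline genes 13 were tested, with a median of -0.34 that combined 0.18 in the first pair and -0.31 in the second. The summed germline list held only 10.7 to 16.3 CPM per library. Sycp1 (0 and 0.22 CPM against 0.56 and 1.11 CPM) and Tdrd1 were higher at an unadjusted p under 0.05. In the cortex libraries of the other stages Sycp1 was at 0 CPM in WT and at 0.35 to 3.25 CPM in Mcph1KO. Of 9 Y-linked genes 5 were tested (median -0.20), with Uba1y at 0.47 and 0.308 CPM in WT and 1.94 and 1.33 CPM in Mcph1KO and Ddx3y at 52.5 and 72.5 against 47.1 and 48.7 CPM. At the other stages Uba1y ran from 0.212 to 0.817 CPM in WT and from 0.854 to 1.74 CPM in Mcph1KO.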
